A study of Mus musculus with 4 samples.

Results

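CD200 and the mouse CD200 receptor family comprise 5 genes here: the ligand gene Cd200 and the receptor genes Cd200r1, Cd200r2, Cd200r3 and Cd200r4. They were chosen by symbol, as the array probe sets whose single gene name in the platform's annotation is one of these 5, and the brightest probe set by the mean of 4 arrays was to stand for each gene. Every member turned out to have exactly 1 such probe set, 5 of 35556 on the array, so brightness decided nothing, and the members are 5 of 19938 genes with a probe set of their own. No probe set named a member together with another gene. The measurements come from 2 mouse cell lines, TS2 and TS1, both labelled as derived from CD4+ T lymphocytes. Each group is 1 line, kept in Iscove-Dulbecco's medium to which murine interleukin-9, a cytokine that sustains some T cells, was added, and neither received a treatment. Total RNA of biological duplicates A and B of each line went onto 1 Affymetrix mouse gene array per duplicate. The values are normalized intensities, given below as log2. A difference between the groups is one between 2 lines. The p-values set it against the spread between these duplicates, which the model in part shares across all genes. The marker Cd4 itself was dim in both lines, and Cd3e, part of the CD3 complex, was far higher in TS2, as given with the other markers.

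CD200 is a membrane glycoprotein of the immunoglobulin superfamily, found on lymphocytes, neurons, endothelium and other cells, that delivers a restraining signal to cells carrying its receptor. The inhibitory receptor CD200R1 signals through a cytoplasmic tail that recruits the adaptor Dok2 and then RasGAP, the product of Rasa1, which dampens Ras and MAP kinase activity. It is best known on macrophages, mast cells and other myeloid cells and is also carried by activated T cells, above all of the type 2 kind. Cd200r2, Cd200r3 and Cd200r4 encode paralogs with short tails. CD200R3 and CD200R4 are activating receptors that pair with the adaptor DAP12, the product of Tyrobp, and CD200R3 marks mouse basophils and mast cells.

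By RefSeq's list of mouse genes (assembly GRCm38.p6), all 5 genes lie on chromosome 16. The 4 receptor genes follow each other in the order Cd200r1, Cd200r4, Cd200r2, Cd200r3 with no other measured gene between them, and Cd200 lies a few genes further on. Of the members, 4 had a promoter window in RefSeq's promoter table of the same build: Cd200, Cd200r2, Cd200r3 and Cd200r4. The 250 bases before the annotated start are shown for Cd200r4 and Cd200r3, because these paralogs share a stretch of sequence there. As given below, the first was called between the lines and the second was not. Whether the annotated starts are the ones used in these lines was not tested. Capitals mark the shared stretch in each.
Cd200r4 (GRCm38.p6, chr16:44820478-44820727, plus strand): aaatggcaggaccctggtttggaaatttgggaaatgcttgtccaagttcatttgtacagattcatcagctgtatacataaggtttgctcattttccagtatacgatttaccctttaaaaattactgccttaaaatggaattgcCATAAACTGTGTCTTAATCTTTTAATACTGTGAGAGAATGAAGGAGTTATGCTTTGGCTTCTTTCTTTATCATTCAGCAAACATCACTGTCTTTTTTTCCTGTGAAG
Cd200r3 (GRCm38.p6, chr16:44943428-44943677, plus strand): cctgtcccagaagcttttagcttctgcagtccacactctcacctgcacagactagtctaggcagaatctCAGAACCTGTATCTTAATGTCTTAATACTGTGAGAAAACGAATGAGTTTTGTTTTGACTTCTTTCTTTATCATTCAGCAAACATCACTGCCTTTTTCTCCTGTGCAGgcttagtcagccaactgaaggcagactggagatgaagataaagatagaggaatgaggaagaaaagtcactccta
The stretch is 107 bases long, aligned without a gap, and 93 of its bases are identical (86.9%). It ends at position -1 before the start of Cd200r4 and at position -75 before the start of Cd200r3. The best local alignments of the other 5 pairs among these windows held 10 to 30 identical bases. The GATA motif in the form AGATAA, searched on both strands, occurred once in the Cd200r3 window (position -39) and once in the Cd200 window (position -119). This form did not occur in the Cd200r4 or Cd200r2 window, and 9.99% of all 32851 promoter windows of this length hold it. Other GATA forms were not searched. The shared stretch holds TTATCA, which reads TGATAA on the other strand, in both Cd200r4 and Cd200r3. The AP-1 motif TGACTCA (in 4.46% of all windows) and the STAT motif TTCNNNGAA (in 7.02%) occurred in none of the 4 windows. No searched motif overlapped another in these windows.

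The receptor genes Cd200r4, Cd200r1 and Cd200r2 were far higher in TS2 than in TS1, and the ligand gene was dim in both lines. The call is an adjusted p under 0.05 in limma, a linear model fitted over all 19938 genes that shares variance between them, with Benjamini-Hochberg adjustment over all genes. Of the 5 members, 3 were called higher in TS2 and 0 in TS1 (4 had an unadjusted p under 0.05), where 5.05% of all genes were called higher in TS2 and 8.45% higher in TS1. In a fit of all 35556 probe sets the same 3 members were called, where 2.01% of all probe sets were higher in TS2. The median difference of the 5 members, TS2 minus TS1, was 4.14 on the log2 scale, beside 0.013 over all genes. The family was taken up with its differences between the lines already known, so this count and this median describe it and are no independent evidence.

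**Figure D1:**
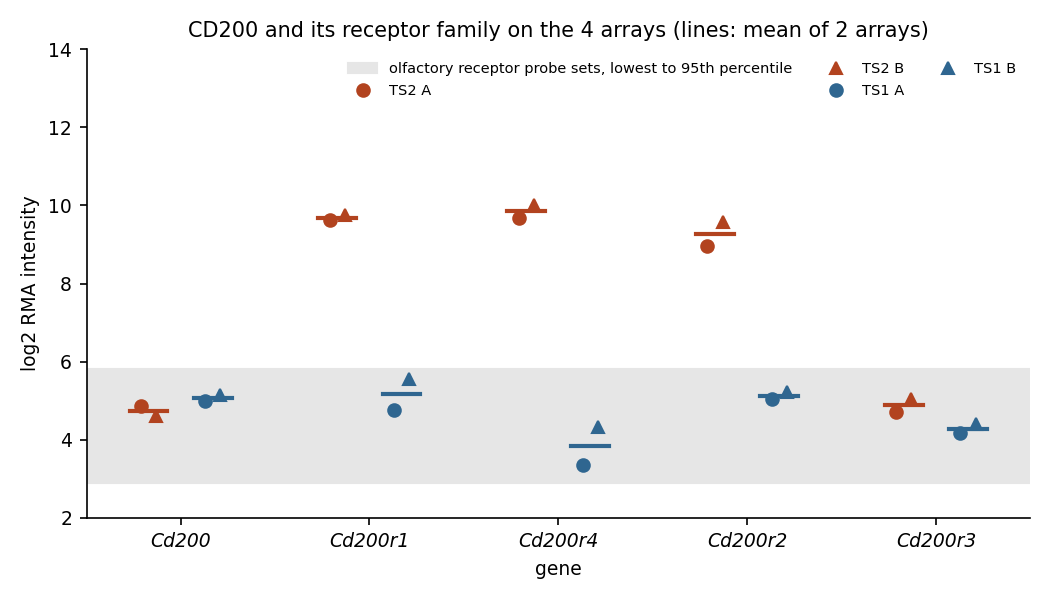
Log2 RMA intensity (vertical axis) of the 5 family members (horizontal axis) on each array, TS2 in red left of TS1 in blue, circles for duplicate A, triangles for duplicate B and lines for the mean of 2 arrays. Only Cd200r1, Cd200r4 and Cd200r2 in TS2 lie above the grey band of olfactory receptor probe sets (lowest value to 95th percentile), and heights are not comparable between genes.

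Cd200r1, the inhibitory receptor, had log2 intensities of 9.62 (A) and 9.75 (B) in TS2, against 4.77 (A) and 5.55 (B) in TS1. Both TS2 arrays lay far above both TS1 arrays, and the TS1 duplicates lay further apart than the TS2 duplicates. Its mean was 9.69 ± 0.095 (SD, n = 2) in TS2 and 5.16 ± 0.55 (SD, n = 2) in TS1. The difference was 4.53 (SE 0.26, 95% interval 3.85 to 5.20, limma adjusted p = 0.0013), a 23.1-fold excess in TS2. In bulk RNA, fewer cells with a transcript and less of it per cell cannot be told apart.

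Cd200r4, the activating paralog next to it on the chromosome, had log2 intensities of 9.69 (A) and 10.02 (B) in TS2, against 3.34 (A) and 4.32 (B) in TS1. The groups did not overlap, and again the TS1 duplicates were the more spread, with SDs of 0.24 in TS2 and 0.69 in TS1 (n = 2 each). The difference of 6.02 (SE 0.34, 95% interval 5.16 to 6.89, limma adjusted p = 0.00113) was the largest of the 5 members.

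Cd200r2, a short-tailed paralog, had log2 intensities of 8.96 (A) and 9.59 (B) in TS2, against 5.04 (A) and 5.22 (B) in TS1. Here the TS2 duplicates were the more spread, with means of 9.27 ± 0.45 (SD, n = 2) in TS2 and 5.13 ± 0.13 (SD, n = 2) in TS1. The difference was 4.14 (SE 0.22, 95% interval 3.57 to 4.72, limma adjusted p = 0.00103), a 17.7-fold excess. Called genes at least 8-fold higher in TS2, as these 3 receptors were, made up 0.381% of all genes. Whether the differences of the 3 receptors differ from each other was not tested.

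Cd200r3, the paralog known from basophils and mast cells, stayed dim in both lines, with log2 intensities of 4.71 (A) and 5.04 (B) in TS2, against 4.16 (A) and 4.40 (B) in TS1. The TS2 arrays lay above the TS1 arrays, as they did for 29.1% of all genes. The difference of 0.60 (SE 0.15, 95% interval 0.21 to 0.99) missed the threshold by limma (adjusted p = 0.0678).

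The ligand gene Cd200 was dim as well, with log2 intensities of 4.87 (A) and 4.62 (B) in TS2, against 4.98 (A) and 5.15 (B) in TS1. It was the 1 member whose TS2 arrays both lay below the TS1 arrays, as 29.3% of all genes did. Its difference of -0.32 (SE 0.13, 95% interval -0.65 to 0.0090) did not pass by limma (adjusted p = 0.180). With single arrays left out it ran from -0.45 to -0.19, the smallest size without TS2 B.

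**Figure D2:**
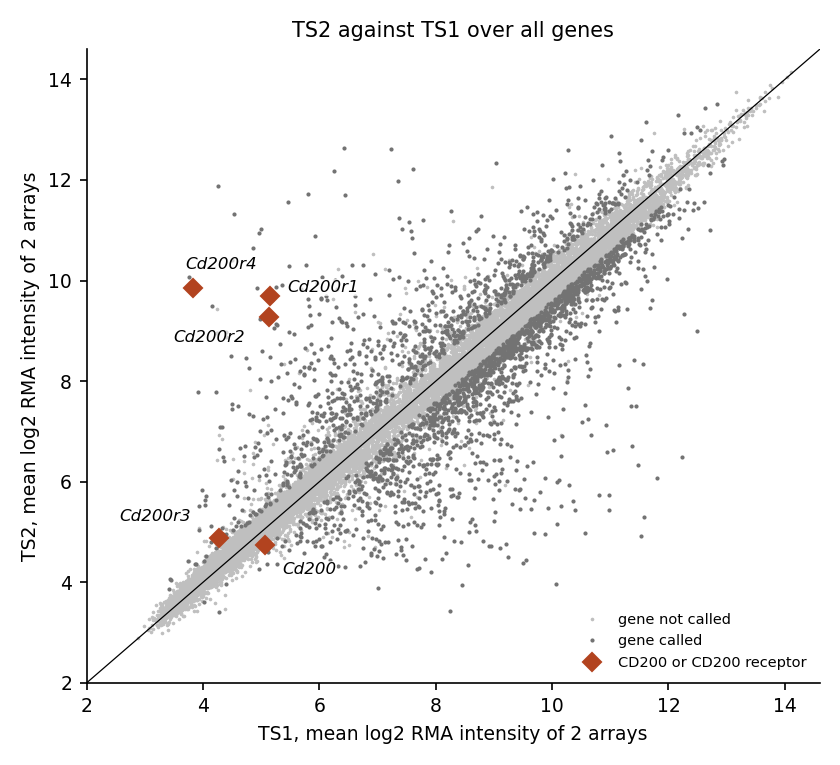
Mean log2 RMA intensity of 2 arrays in TS2 (vertical axis) against TS1 (horizontal axis) for 19938 genes, dark grey where called, with the 5 family members as red diamonds and the line of equal values. Cd200r1, Cd200r4 and Cd200r2 stand far above the line, while Cd200 and Cd200r3 lie near it at its dim end.

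The data hold no detection calls, so the level of genes that lymphoid cells are not known to use serves as a description of dim signal. The probe sets of 1015 olfactory receptor genes had a median log2 intensity of 4.19 over the 4 arrays and a 95th percentile of 5.80. On both TS2 arrays, Cd200r1, Cd200r4 and Cd200r2 exceeded 100% of these probe sets. On the TS1 arrays, Cd200r1 exceeded 79.0% (A) and 92.7% (B) of them, Cd200r2 85.5% and 88.5%, and Cd200r4 4.14% and 58.3%. Cd200 exceeded 77.8% (A) and 70.8% (B) of them on the TS2 arrays and 84.1% (A) and 87.2% (B) on the TS1 arrays, and Cd200r3 also stayed below the 95th percentile on every array. The fold changes of the 3 called receptors therefore rest on TS1 values within the range of dim signal, where the size of a fold is uncertain. The paralogs are close in sequence and the probe sequences are not used here, so how far one receptor's transcript was read by another's probe set was not tested.

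Of the measured genes next to the family on chromosome 16, 5 lie before Cd200r1, 4 between Cd200r3 and Cd200, and 5 after Cd200. Of these 14, 1 passed the test, where 13.5% of all genes did: Gcsam, an adaptor of germinal centre B cells, lies beyond Cd200 and was higher in TS2 by 3.59 (SE 0.13, limma adjusted p = 0.000401). Its log2 intensities were 8.75 (A) and 8.45 (B) in TS2, against 5.04 (A) and 4.98 (B) in TS1. The 5 genes before Cd200r1 differed by 0.050 to 0.61 and the 4 between Cd200r3 and Cd200 by -0.27 to 0.20. Between Cd200r3 and Cd200 lies Btla, an inhibitory receptor of lymphocytes, which differed by -0.082 (limma adjusted p = 0.650).

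**Figure D3:**
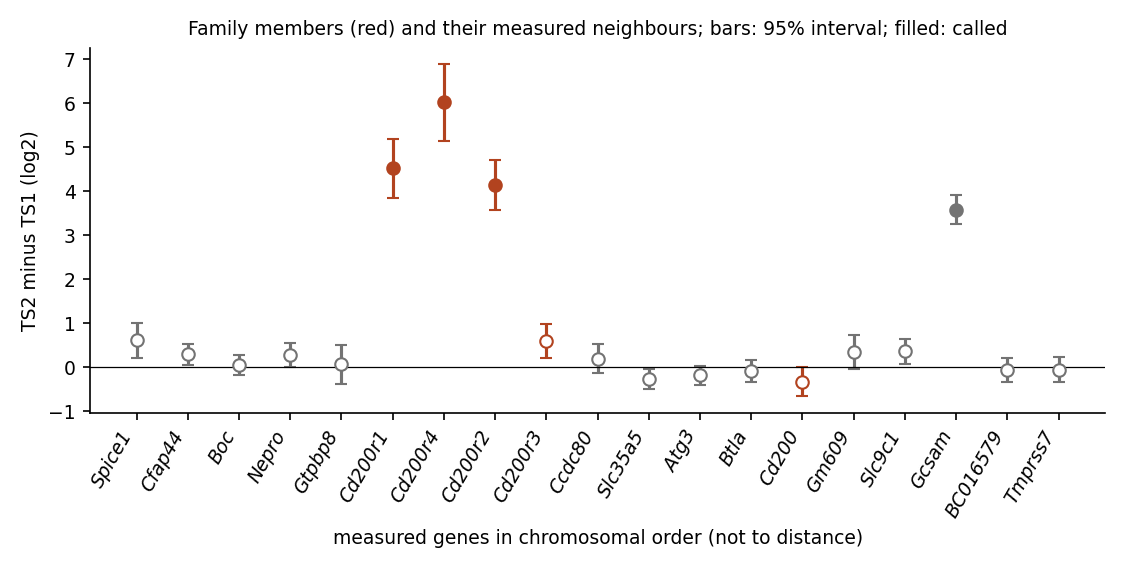
Difference in log2 intensity, TS2 minus TS1, with its 95% interval (vertical axis) for the family members in red and their measured neighbours in grey, in chromosomal order from left to right, filled where called. The 3 called receptors sit side by side, and of the 14 neighbours 1, Gcsam, is called.

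The list of proteins next to CD200R1 holds 7 genes, the Dok adaptors, RasGAP and partners. Of these limma called 0, where 13.5% of all genes were called in either direction, and for a list this short the 2 shares are close. At an unadjusted p under 0.05, 2 of the 7 were higher in TS2 and 1 was lower. The median difference was 0.0046, beside 0.013 over all genes, and the lowest value of any of the 7 on any array was 8.04. Dok2, the first adaptor of the pathway, had log2 intensities of 8.43 and 8.20 in TS2, against 8.71 and 8.04 in TS1. Its difference was -0.055 (limma adjusted p = 0.918), and the TS1 duplicates lay on either side of the TS2 duplicates. Dok1, a related adaptor, had both TS2 arrays above both TS1 arrays and differed by 0.73 (SE 0.24, limma adjusted p = 0.119). This value was 0.44 without TS1 B and 1.01 without TS1 A (adjusted p = 0.274 and 0.0597). The difference was 0.26 for Rasa1 (limma adjusted p = 0.148) and -0.20 for Inpp5d, the lipid phosphatase SHIP-1, (limma adjusted p = 0.245).

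The adaptors and kinases that serve activating receptors were mixed. Of 9 measured, TS2 was higher for 1 and lower for 3, and 5 missed the threshold. The share called was 44.4%, beside 13.5% of all genes. Their median difference was -0.11. Tyrobp, the partner of CD200R3 and CD200R4, was lower in TS2, with log2 intensities of 6.59 and 6.30 in TS2 and 7.19 and 7.20 in TS1. Its difference of -0.75 (SE 0.12, limma adjusted p = 0.0229) passed with all arrays but not without TS1 A (adjusted p = 0.0676), without TS1 B (adjusted p = 0.0793) or without TS2 B (adjusted p = 0.0921), nor in a fit of all probe sets (adjusted p = 0.0560). Fcer1g, the adaptor of Fc receptors, was lower in TS2 (difference -1.39, SE 0.16, limma adjusted p = 0.0083), and Pik3cd, a catalytic subunit of phosphoinositide 3-kinase, was lower too (difference -1.26, SE 0.13, limma adjusted p = 0.00666). Zap70, a kinase of the T cell receptor, was higher in TS2 by 2.27 (SE 0.15, limma adjusted p = 0.00195). Hcst, which encodes the adaptor DAP10, differed by 0.27 and did not pass (limma adjusted p = 0.164).

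In the Ras and MAP kinase chain that CD200R1 is known to dampen, limma called 2 of 11 measured genes, both higher in TS2, and 9 missed the threshold. The share called, 18.2%, is close to the 13.5% of all genes. At an unadjusted p under 0.05, 3 of the 11 were higher in TS2 and 4 were lower. The median difference of the chain was -0.19. Rasgrp1, an exchange factor that activates Ras, was higher by 4.15 (SE 0.15, limma adjusted p = 0.000405), with log2 intensities of 9.95 and 9.73 in TS2 against 5.51 and 5.86 in TS1. The other, Nras, was higher by 0.50 (limma adjusted p = 0.0312), but it missed the threshold when any single array was dropped (adjusted p = 0.0611 to 0.170), with A and B as a block (adjusted p = 0.0757) and in a fit of all probe sets (adjusted p = 0.0703). With the dimmest genes left out, at 2 cut-offs, 2 genes of the chain were higher in TS2 at each, and 2 and 3 were lower.

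Of 5 measured genes known to regulate CD200 or CD200R1 in other settings, 2 were higher in TS2 and 3 did not pass. The share called was 40%, beside 13.5% of all genes, and the median difference was 0.18. Gata3, the lineage factor of type 2 T cells, was higher by 3.30 (SE 0.11, limma adjusted p = 0.000343), with log2 intensities of 12.26 and 12.41 in TS2 against 9.10 and 8.96 in TS1. Cebpb, a factor known to repress CD200R1 in microglia, was higher by 0.74 (SE 0.11, limma adjusted p = 0.0160). The call of Cebpb was lost without TS1 B (adjusted p = 0.0556), TS2 A (adjusted p = 0.0960) or TS2 B (adjusted p = 0.0631).

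**Figure D4:**
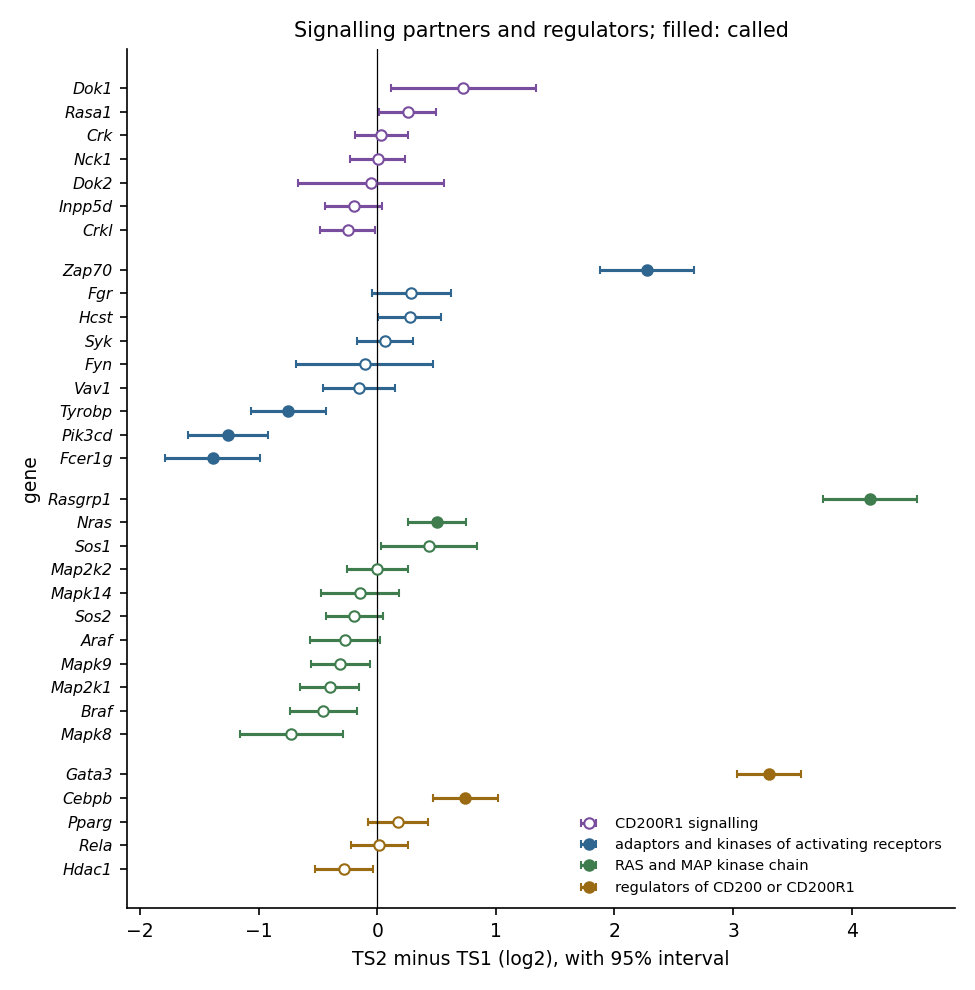
Difference in log2 intensity, TS2 minus TS1, with its 95% interval (horizontal axis) for each measured gene (vertical axis) of 4 lists, filled where called. None of the 7 genes of CD200R1 signalling is called, Dok1 lies furthest from 0 among them, and Rasgrp1, Gata3 and Zap70 lie furthest to the right and Fcer1g and Pik3cd furthest to the left.

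Type 2 T cell genes, which mark the T cells best known to carry CD200R1, were called in both directions. Of 9 measured, 2 were higher in TS2 (Gata3 and the chemokine receptor Ccr8, by 2.00, limma adjusted p = 0.0017), 1 was lower in TS2 and 6 missed the threshold. The share called was 33.3%, beside 13.5% of all genes, and the median difference was 0.32. At an unadjusted p under 0.05, 4 of the 9 were higher in TS2 and 2 were lower. The genes that missed the threshold are named after their values were seen. Among them, the cytokine genes Il10 (difference 1.40, limma adjusted p = 0.0829) and Il13 (difference 1.21, limma adjusted p = 0.122) had both TS2 arrays above both TS1 arrays, as had 29.1% of all genes. Their TS1 duplicates lay apart, at 7.88 (A) and 9.09 (B) for Il10 and 10.90 (A) and 9.73 (B) for Il13. The rest were Ptgdr2 (difference 0.32), Il5 (0.15), Il4 (-0.13) and Ccr4 (-0.59). Ccr4 had both TS2 arrays below both TS1 arrays, as had 29.3% of all genes. The called lower one was Il4ra, a receptor chain for interleukin-4 and interleukin-13 (difference -0.53, limma adjusted p = 0.0345), which missed the threshold when any single array was dropped (adjusted p = 0.0544 to 0.182).

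Among 22 measured genes of other inhibitory ligand and receptor pairs, limma called 10 (45.5%), each higher in TS2, where 5.05% of all genes were. The median difference of the 22 was 0.36, and 8 of them lay at or below the olfactory receptors' 95th percentile in both line means. The count called fell to 5 with at least a 2-fold difference and to 4 at an adjusted p under 0.01. In a fit of all probe sets it was 6. At an unadjusted p under 0.05, 12 of the 22 were higher in TS2 and 1 was lower. The largest difference was that of Cd226, by 4.03 (limma adjusted p = 0.00152). It encodes an activating, not an inhibitory, receptor that shares the ligand Pvr with Tigit. Next came Lilrb4a, an inhibitory receptor, by 3.01 (limma adjusted p = 0.0163), and Pvr itself, by 2.61 (limma adjusted p = 0.00349). Pdcd1lg2, a ligand of the checkpoint receptor PD-1, followed by 2.17 (limma adjusted p = 0.00146). Lilrb4a missed the threshold once TS2 A (adjusted p = 0.0623) or TS2 B (adjusted p = 0.0783) was dropped. When TS2 A was dropped, 3 of the 22 genes were called, and when TS2 B was dropped, also 3.

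Markers of the cell types that carry the family are given beside these results, as the label names only CD4+ T lymphocytes. Of 12 measured T cell markers, 3 were called (25%, beside 13.5% of all genes), all higher in TS2, among them Cd3e by 6.21 and Cd247 by 2.83. The CD3 chain genes Cd3d and Cd3g, named after their values were seen, were not called. Cd3d was dim on all arrays (4.63 to 4.92). Cd3g read 10.39 (A) and 11.98 (B) in TS2, against 10.52 (A) and 6.07 (B) in TS1, so its TS1 duplicates disagreed. Cd4 was dim in both lines, with log2 intensities of 5.15 and 5.28 in TS2 against 5.38 and 5.36 in TS1, and 4 of the 12 lay at or below the olfactory receptors' 95th percentile in both line means. Of 14 mast cell and basophil markers, limma called 2 (14.3%, beside 13.5% of all genes), both lower in TS2: Kit, the receptor of stem cell factor, with a difference of -1.90, and the transcription factor Gata2, with a difference of -4.65. At an unadjusted p under 0.05, 3 of the 14 were higher in TS2 and 2 were lower, and without TS2 A limma called 3 higher and 3 lower. The mean log2 level of this list was 6.74 (A) and 7.43 (B) in TS2, against 6.92 (A) and 6.78 (B) in TS1, and 4 of the 14 lay at or below that percentile in both lines. Those 4 were Ms4a2 (3.99 to 4.22 over the arrays), Tpsab1 (4.93 to 5.09), Tpsb2 (5.46 to 5.63) and Prss34 (5.08 to 5.88). These and the next pair of the list's members are named after their values were seen. Fcer1a, the chain of the immunoglobulin E receptor that binds the antibody, was bright on every array (13.00 and 13.08 in TS2, 12.69 and 12.91 in TS1), while Ms4a2 encodes another chain of that receptor. Mcpt8, a basophil protease, read 7.89 (A) and 11.64 (B) in TS2, against 5.75 (A) and 4.55 (B) in TS1.

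Mast cell and basophil transcripts differed in both directions between duplicates B and A of TS2, with 9 of 14 markers higher in B and a median B minus A of 0.091. In TS2, 3 of the 14 markers were at least 1 higher on the log2 scale in B than in A, as were 93 of 19938 genes. These were the protease genes Mcpt8 (by 3.74), Mcpt4 (3.50) and Cma1 (3.26), named after their values were seen. Cpa3, a mast cell protease also named after its values were seen, had the largest change the other way, with 7.95 in B and 8.91 in A. Cd200r1, Cd200r4, Cd200r2 and Cd200r3 were higher in TS2 B than in TS2 A by 0.13, 0.33, 0.63 and 0.33. Without TS2 B the differences between the lines were 4.46 for Cd200r1, 5.86 for Cd200r4 and 3.83 for Cd200r2, each still called (limma adjusted p = 0.00918, 0.0077 and 0.00223). Of 12 macrophage and dendritic cell markers, limma called 1, Cd68, lower in TS2 (difference -0.64, adjusted p = 0.0261), which was lost without TS1 A, TS2 A or TS2 B, and 9 were at or below the olfactory percentile in both lines. The mean log2 level of these markers was 5.38 and 5.33 in TS2, against 5.46 and 5.52 in TS1. Of 5 B cell markers, limma called 0 (1, lower in TS2, at an unadjusted p under 0.05). Of 6 NK cell markers, Klrk1 (difference 4.58), Gzma (1.87) and Ncr1 (1.42) were higher in TS2 and Eomes (-2.88) was lower. Of 8 fibroblast and endothelial markers, limma called 1, Pdgfra, lower in TS2 (difference -1.78, adjusted p = 0.0325), a call lost without TS1 B, TS2 A or TS2 B. The share called was 8.33% of the macrophage and dendritic cell markers, 66.7% of the NK cell markers and 12.5% of the fibroblast and endothelial markers. Over all genes it was 13.5%.

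Genes closest in pattern to each called receptor were sought over the 4 arrays, as the smallest root mean square (RMS) difference of log2 values after each gene was centred on its own mean, among 17071 genes. With 4 arrays of 2 lines, this likeness mostly reflects the size of the difference between the lines. Nearest to Cd200r1 were Cdh2 (RMS difference 0.23), which encodes N-cadherin, Klrk1 (0.24), Entpd1 (0.27), Rasgrp1 (0.27) and Hpgds (0.31), the hematopoietic prostaglandin D synthase. Nearest to Cd200r4 were Ptprc (0.39), Cd3e (0.42), Fundc2 (0.43), Clnk (0.44) and Stat4 (0.47). Nearest to Cd200r2 were Ripk3 (0.11), a kinase of programmed necrosis, Lif (0.18), Klrk1 (0.23), Casp1 (0.23) and Klhl22 (0.29). Between the receptors themselves, the RMS difference was 0.34 for Cd200r1 and Cd200r2, 0.75 for Cd200r1 and Cd200r4, and 0.99 for Cd200r2 and Cd200r4.

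**Figure D5:**
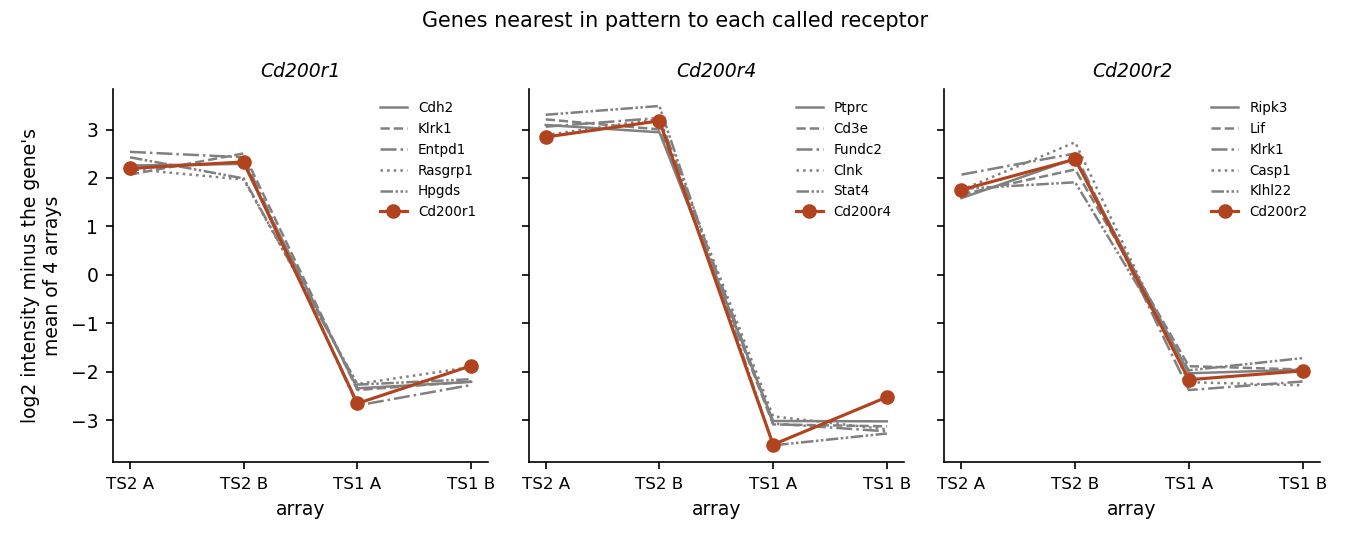
Log2 intensity minus the gene's own mean of 4 arrays (vertical axis) on each array (horizontal axis, TS2 before TS1) for Cd200r1, Cd200r4 and Cd200r2 in red and the 5 genes nearest in pattern to each in grey. All curves are high on both TS2 arrays and low on both TS1 arrays, and Cd200r4 differs from the genes nearest to it mainly on the TS1 arrays.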

How the data were processed

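The submitters' processing notes name RMA and Affymetrix Expression Console without versions; genome build and filters are not given in the sources used. The authors deposited intensities, 1 per probe set and array, on a linear scale from 5.98 to 23157. RMA makes the arrays' distributions alike, so it hides any change common to the majority of genes. The design had assumed log2 values, so log2 was taken here, with 0 missing or non-positive values and no pseudocount. Of 35556 probe sets, 21789 had 1 gene symbol in the platform annotation, 1621 several and 12146 none. Symbols were updated by Entrez number through a RefSeq table of GRCm38.p6 (21698 matched), and the brightest probe set stood for each of 19938 genes.

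All 4 arrays entered 1 linear model with the line as factor (limma 3.58.1, R 4.3.3), with 2 residual and 3.03 prior degrees of freedom. An exact two-sided test of 2 against 2 arrays cannot go below p = 0.333. Column medians were 88.6 and 89.9 (TS2 A and B) and 89.0 and 92.5 (TS1 A and B). Pearson's r over probe sets was 0.994 within TS2, 0.992 within TS1 and 0.969 to 0.976 between lines. The fit was tested on simulated data with 200 changed genes and variances drawn from the prior fitted here. It called 65.6% of changes of 1 and 96.05% of changes of 2 on the log2 scale, with 9 false calls on average. Many changes of 1 were thus missed in this setting. In the data 2691 genes were called, and more changed genes make the adjusted threshold easier to pass. The simulated shares therefore need not hold for the data. The number of arrays limits the precision.

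The members, the 12 gene lists (131 genes, 118 measured) and the tests were chosen with earlier results of these data known. Named are the members, up to 4 called genes of each list with the largest difference in each direction, called chromosomal neighbours, the 5 genes nearest in pattern to each called member and Dok1, Dok2, Rasa1, Inpp5d, Tyrobp, Hcst, Gata3, Cebpb and Btla. Further genes, marked in the text, were named after their values were seen. Promoters were aligned with Biopython 1.88 (local; match 1, mismatch -1, gap -3 and -1). Scan days and slides of the arrays are not analysed here.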

Additional observations from a re-analysis of the deposited data

How the results depend on the processing

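The calls of Cd200r1, Cd200r4 and Cd200r2 were kept under 15 of 16 alternatives. The exception was the linear model without moderated variances, in which the count of called members was 0 (3 at an unadjusted p under 0.05) and the counts over all genes were 0 and 0 (4156 at an unadjusted p under 0.05). Over the other 15, the difference was 4.14 to 4.92 for Cd200r1, 5.53 to 6.51 for Cd200r4 and 3.83 to 4.46 for Cd200r2, with adjusted p from 0.000721 to 0.00918 over the 3. With the replicate letter as a replicate block, Cd200r3 passed as well (adjusted p = 0.0493), giving 4 called members, while its limma adjusted p was 0.244 without TS2 B. Cd200 passed under none of its alternatives (limma adjusted p = 0.135 to 0.544 with moderated variances). Cd200 and Cd200r3 have no value where the dimmest genes were left out.

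Over all genes, 1006 were called higher in TS2 and 1685 lower, and these counts moved more. They were 664 and 1002 with the replicate block, 316 and 491 at an adjusted p under 0.01, and 448 and 587 with at least a 2-fold difference. With single arrays left out they ran from 420 to 861 and from 559 to 1337, the lowest without TS2 A. The lone array left is then taken to vary as the other line does, and fewer degrees of freedom remain. The letters A and B pair no samples by the labels, and the A minus B differences of the lines correlated at -0.029 across genes. Of 25 called genes named from the lists and neighbours, 5 to 7 lost their call with an array left out and 2 with the replicate block. The 11 further genes nearest in pattern, each with a large difference, lost 0 calls under these settings and all 11 without moderated variances. Without TS2 A, 6 mast cell and basophil markers were called (3 higher in TS2, 3 lower), against 2 with all arrays. Signal over background was not measured, which limits the size of any fold against a dim TS1 value.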
